A study of Mus musculus with 18 samples.

Results

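The genes Tmem26, Tnfrsf9, Cited1, Shox2, Klhl13 and Ear2 have been proposed as markers of beige adipocytes, Slc36a2 and P2rx5 as markers of brown (and beige) adipocytes, and Slc7a10 as a marker of white adipocytes. Every probe set annotated to 1 of these 9 genes alone was taken, which gave 13 probe sets of 8 genes out of 45037 probe sets and 18193 annotated genes. Ear2 had no probe set annotated to it and was not measured here. White adipocytes store fuel as triglyceride, whereas brown adipocytes burn it to make heat through the mitochondrial uncoupling protein Ucp1. Beige (or brite) adipocytes are cells within white depots that take on this capacity, mostly in subcutaneous fat and in the cold. Markers that sit on the cell surface are sought since they would allow each kind of adipocyte to be recognized and sorted alive, and Slc36a2, P2rx5, Slc7a10, Tmem26 and Tnfrsf9 encode membrane proteins, whereas Cited1 and Shox2 encode nuclear regulators, Klhl13 an adaptor of a ubiquitin ligase and Ear2 a secreted ribonuclease.

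Female Sv129 mice of 10 weeks, for which the labels name no altered allele and no drug, spent 10 days at either 6 or 28°C. Whole interscapular brown fat (BAT), subcutaneous white fat of the inguinal pad (sWAT) and white fat of the mesentery (mWAT) gave the RNA for 18 Affymetrix arrays, 3 per depot and temperature, to ask how the depots differ and how each responds to cold. The study's methods call the 3 arrays of a group biological replicates of singly caged animals, but the labels do not say which arrays of different depots came from the same mouse. In whole tissue, fewer cells of a type and less RNA per cell cannot be told apart.

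Each array's depot and temperature were those of its title, with which its description and source name agreed, since the tissue and temperature in its characteristics contradict these, with the same temperature in only 6 of 18 arrays. Grouping by title left little of the spread of Ucp1 within groups, as it accounted for 98.9% of its variance, against 48.3% for grouping by the characteristics. For the 8 markers the corresponding ranges were 31.2 to 99.5% and 24.4 to 59.8%, with Tnfrsf9 the lowest in both. The log2 intensity of Ucp1 averaged 14.36 in cold and 14.03 in warm BAT, 13.80 in cold and 10.15 in warm sWAT, and 9.50 in cold and 6.48 in warm mWAT. The mean of 3 measured adipocyte genes lay between 12.95 and 13.60 on all arrays, but the genes were not alike. Fabp4 (13.79 to 14.17) and Adipoq (13.5 to 13.85) varied little. Lipe varied more, with its lowest value of 11.19 on a warm mWAT array and its highest of 13.01 on a cold BAT array. At the threshold given below, Lipe was higher in warm BAT than in either warm white depot. At 6°C it was higher in BAT and in sWAT than in mWAT. Genes of other cells differed between and within depots. The mean of 7 T cell genes was 5.60 to 6.31 in BAT and 9.18 to 11.09 in sWAT, and in mWAT it was 10.94 to 11.10 on arrays 1 and 2 of each temperature but 6.48 (6°C) and 6.59 (28°C) on array 3. The mean of 8 mammary epithelial genes was 11.69 to 12.53 in sWAT and 4.72 to 8.28 elsewhere.

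More of the markers differed between BAT and the white depots than between temperatures, as was also so for all probe sets. A difference was called at an adjusted p under 0.01 in a limma model of all probe sets, and 1 probe set, the brightest, stands for each gene unless another is named. Between BAT and sWAT at 28°C, 7 of the 8 genes were called, where 22.9% of all probe sets were, with 2 higher in BAT (13.2% of all probe sets) and 5 lower (9.66%). BAT and mWAT at 28°C differed in 6 genes (27.2% of all probe sets), with 3 higher (15.8%) and 3 lower in BAT (11.4%). Warm sWAT and mWAT differed in 2 genes (5.84% of all probe sets), both higher in sWAT (2.14%). At 6°C the corresponding numbers were 6 (23.7% of all probe sets), 7 (35.2%) and 3 (7.45%). Cold exposure changed 2 genes in BAT, where 5.28% of all probe sets were called, Shox2 upward (3.05%) and Klhl13 downward (2.23%). It changed none of the 8 in sWAT (0.48% of all probe sets called, with 4 of the 8 genes at an unadjusted p under 0.05, where 12.3% of all probe sets were) and none in mWAT (0.00222% called, with 1 gene at an unadjusted p under 0.05, where 4.04% were).

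**Figure D1:**
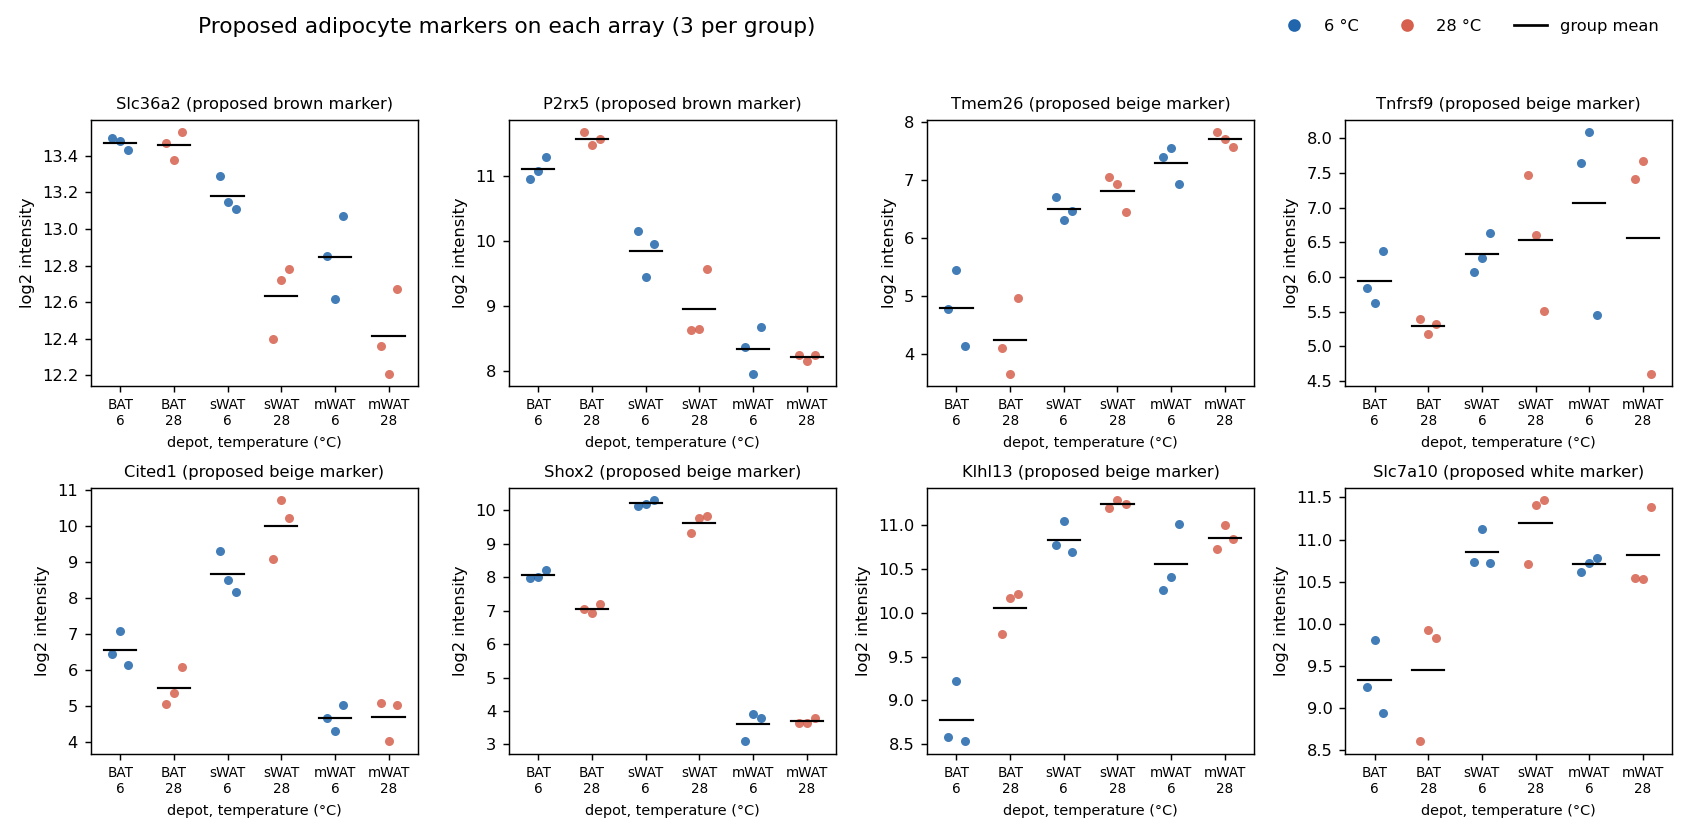
Log2 intensity of the brightest probe set of each of the 8 measured markers (vertical axis) on each of the 18 arrays, by depot and temperature (horizontal axis). Dots are arrays, blue at 6°C and red at 28°C, and bars are means of 3 arrays. Shox2 lay between 9.32 and 10.31 in sWAT and between 3.09 and 3.92 in mWAT, while Slc36a2 stayed between 12.21 and 13.53 on every array.

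Slc36a2 (chr11:55158468-55185099, GRCm38.p6) encodes PAT2, a proton-coupled carrier of small neutral amino acids proposed as a marker of brown and beige adipocytes. Its probe set, 1436521_at, read 13.50, 13.48 and 13.43 in BAT at 6°C and 13.47, 13.38 and 13.53 in BAT at 28°C. In sWAT it read 13.29, 13.15 and 13.11 at 6°C, against 12.40, 12.72 and 12.78 at 28°C. In mWAT it read 12.85, 12.62 and 13.07 at 6°C, against 12.36, 12.21 and 12.67 at 28°C. It was thus bright on every array of every depot, overlapped between the temperatures in BAT and mWAT, and was above all warm sWAT arrays on each cold sWAT array.

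At 28°C Slc36a2 was 1.77-fold higher in BAT than in sWAT (log2 difference 0.83 ± 0.15 SE, limma adjusted p = 0.00049) and 2.07-fold higher in BAT than in mWAT (1.05 ± 0.15, adjusted p = 4.6e-05). At 6°C the difference between BAT and mWAT still passed (0.62 ± 0.15, adjusted p = 0.0027, though at most 0.017 without array 1 of BAT or 2 of mWAT and 0.022 in a fit of these groups alone), whereas that between BAT and sWAT was 0.29 ± 0.15 (adjusted p = 0.14, 95% interval -0.03 to 0.60). The cold difference in sWAT was 0.55 ± 0.15 (adjusted p = 0.084), that in mWAT 0.44 ± 0.15 (adjusted p = 0.98) and that in BAT 0.01 ± 0.15 (interval -0.31 to 0.32). Ordered by mean level (13.47 in BAT at 6°C, 13.46 in BAT at 28°C, 13.18 in sWAT at 6°C, 12.85 in mWAT at 6°C, 12.63 in sWAT at 28°C and 12.41 in mWAT at 28°C), no 2 neighbouring groups were called different. Cold sWAT stood next to warm BAT in that order, and their difference was -0.28 ± 0.15 (adjusted p = 0.17, interval -0.59 to 0.03). The arrays of these 2 groups did not overlap, so that a missed threshold does not make their levels alike.

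P2rx5 (chr11:73155389-73172687), the second marker of this kind, encodes a subunit of an ATP-gated cation channel. Its probe set, 1449433_at, read 10.95, 11.08 and 11.29 in BAT at 6°C and 11.68, 11.48 and 11.57 in BAT at 28°C. In sWAT it read 10.16, 9.44 and 9.95 at 6°C, against 8.63, 8.65 and 9.57 at 28°C. In mWAT it read 8.37, 7.96 and 8.68 at 6°C, against 8.24, 8.16 and 8.24 at 28°C. All 6 BAT arrays lay above all WAT arrays, the temperatures did not overlap in BAT, and in sWAT 1 warm array (9.57) exceeded 1 cold array (9.44).

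P2rx5 was 6.17-fold higher in BAT than in sWAT at 28°C (2.63 ± 0.25, adjusted p = 2.1e-06) and 2.39-fold higher at 6°C (1.26 ± 0.25, adjusted p = 0.0012). Over mWAT it was 10.3-fold higher in BAT at 28°C and 6.84-fold higher at 6°C. sWAT exceeded mWAT at 6°C (1.52 ± 0.25, adjusted p = 0.00076, but 0.019 in a fit of these groups alone), and the difference at 28°C was 0.74 ± 0.25 (adjusted p = 0.078). The cold difference was 0.90 ± 0.25 in sWAT (adjusted p = 0.095) and -0.47 ± 0.25 in BAT (adjusted p = 0.25). The cold response of sWAT minus that of BAT was 1.37 ± 0.35, which did not pass (adjusted p = 0.063). P2rx5 in cold sWAT was lower than in warm BAT (-1.73 ± 0.25, adjusted p = 0.00016). For Slc36a2 the same difference was not called (adjusted p = 0.17), although each cold sWAT array was below each warm BAT array for both genes.

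Slc7a10 (chr7:35186095-35201116) encodes Asc-1, a sodium-independent carrier of small neutral amino acids that works as a pair with the heavy chain Slc3a2, and was proposed as a marker of white adipocytes. Its probe set, 1421093_at, read 9.25, 9.81 and 8.94 in BAT at 6°C and 8.60, 9.92 and 9.83 in BAT at 28°C. In sWAT it read 10.73, 11.12 and 10.72 at 6°C and 10.71, 11.41 and 11.47 at 28°C. In mWAT it read 10.62, 10.72 and 10.78 at 6°C and 10.54, 10.53 and 11.39 at 28°C. Each of the 6 BAT arrays was below each of the 12 WAT arrays, and the temperatures overlapped in every depot.

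At 28°C Slc7a10 was lower in BAT than in sWAT at a log2 difference of -1.75 ± 0.34 (adjusted p = 0.0011) and than in mWAT at -1.37 ± 0.34 (adjusted p = 0.0053). The differences were -1.52 ± 0.34 (adjusted p = 0.003) and -1.37 ± 0.34 (adjusted p = 0.004) at 6°C. Of the 18 fits without 1 array, 3 lost the call against sWAT (without array 1 or 3 of BAT or 2 of sWAT at 6°C). The call against mWAT was lost in 5 (without array 1 or 3 of BAT or any array of mWAT at 6°C). No neighbouring groups among the 4 WAT groups were called different. The call against mWAT at 28°C was lost without array 1 of BAT at 28°C or array 3 of mWAT at 28°C, and without both mWAT arrays 3 (-1.08 ± 0.37, adjusted p = 0.03). Fits of the compared groups alone ended both calls at 28°C (adjusted p = 0.016 against sWAT and 0.048 against mWAT). Cold differences were -0.12 ± 0.34 in BAT, -0.34 ± 0.34 in sWAT and -0.11 ± 0.34 in mWAT. Within BAT at 28°C, the arrays of lowest and highest Slc7a10 were also those of lowest and highest skeletal muscle genes. There the mean of 6 muscle genes was 8.41, 12.77 and 12.37 on arrays 1 to 3. At 6°C array 2 was highest for both (muscle mean 10.36). Slc7a10 was lowest on array 3 there (muscle mean 8.28), but the muscle mean was lowest on array 1 (7.44). Muscle genes averaged 11.18 in warm and 8.69 in cold BAT, against 9.45 and 9.33 for Slc7a10. The part of muscle in the spread was not tested.

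Tmem26 (chr10:68723746-68782655) encodes a protein of several membrane spans whose function is little known, used as a surface marker of beige adipocytes. Its brighter probe set, 1435409_at, read 4.78, 5.45 and 4.14 in BAT at 6°C and 4.11, 3.67 and 4.97 in BAT at 28°C. In sWAT it read 6.70, 6.31 and 6.46 at 6°C and 7.04, 6.93 and 6.45 at 28°C. In mWAT it read 7.39, 7.54 and 6.93 at 6°C and 7.82, 7.70 and 7.57 at 28°C. No BAT array reached the lowest WAT array, and the visceral mWAT, not sWAT, held the highest values. The median probe set of an array lay between 6.97 and 7.20, so that Tmem26 was above its array's median on only 5 of 18 arrays, and folds against levels this dim are not exact.

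Tmem26 was lower in BAT than in sWAT at a log2 difference of -2.56 ± 0.33 (adjusted p = 3.6e-05) and than in mWAT at -3.45 ± 0.33 (adjusted p = 1.6e-06) at 28°C. At 6°C the differences were -1.70 ± 0.33 (adjusted p = 0.0011) and -2.50 ± 0.33 (adjusted p = 2.4e-05). The second probe set, 1434583_at, which was dimmer than the array median everywhere, gave -2.09 ± 0.25 for BAT against mWAT at 28°C (adjusted p = 1.4e-05) but missed the threshold for BAT against sWAT (-0.78 ± 0.25, adjusted p = 0.026). It called sWAT lower than mWAT at 28°C (-1.31 ± 0.25, adjusted p = 0.0031), where the brighter set gave -0.89 ± 0.33 (adjusted p = 0.12). Cold differences of the brighter set were 0.54 ± 0.33 in BAT, -0.32 ± 0.33 in sWAT (interval -1.02 to 0.39) and -0.41 ± 0.33 in mWAT, and none passed.

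Tnfrsf9 (chr4:150920155-150946104) encodes CD137 (4-1BB), a receptor of the tumor necrosis factor family that is used as a beige surface marker and is best known as a costimulatory receptor of activated T cells. Its brightest probe set, 1460469_at, read 5.85, 5.63 and 6.37 in BAT at 6°C and 5.40, 5.18 and 5.32 in BAT at 28°C. In sWAT it read 6.08, 6.27 and 6.64 at 6°C and 7.47, 6.61 and 5.51 at 28°C. In mWAT it read 7.64, 8.09 and 5.46 at 6°C and 7.42, 7.67 and 4.61 at 28°C. Array 3 of mWAT at either temperature was thus lower than arrays 1 and 2 by more than any 2 of the 6 group means differed.

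The mean of the 7 T cell genes was also low on array 3 of mWAT. Arrays 1 to 3 had 11.03, 10.94 and 6.48 in cold mWAT and 10.97, 11.10 and 6.59 in warm mWAT. In cold sWAT the 3 arrays had means of 9.18, 10.06 and 10.22, and in warm sWAT of 11.09, 10.04 and 9.51, the same order of arrays 1 to 3 as that of Tnfrsf9 at both temperatures. T cell genes were near their lowest in BAT, at 6.00, 5.75 and 6.02 (6°C) and 5.71, 5.60 and 6.31 (28°C). Across depots the levels did not run alike, as cold BAT and sWAT had Tnfrsf9 means of 5.95 and 6.33 but T cell means of 5.92 and 9.82. The mean of 4 B cell genes was likewise low on array 3 of mWAT (7.64 at 6°C, 7.38 at 28°C), against 10.39 to 10.75 on arrays 1 and 2. Its order of arrays in sWAT was also that of Tnfrsf9. Whether T cells or B cells carried the Tnfrsf9 signal was not tested.

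For Tnfrsf9 no contrast passed with all 18 arrays, with standard errors of 0.75 for a difference of 2 groups. BAT minus mWAT was -1.27 ± 0.75 at 28°C (adjusted p = 0.19) and -1.12 ± 0.75 at 6°C (adjusted p = 0.23). Without both mWAT arrays 3, an alternative chosen after seeing the data, the same differences were -2.25 ± 0.42 (adjusted p = 0.00073) and -1.92 ± 0.42 (adjusted p = 0.0019). The arrays left out were those of lowest Tnfrsf9 in mWAT (5.46 and 4.61). Their removal itself raised the mWAT means and cut the spread, so these adjusted p are no evidence of a difference. The cold difference in sWAT was -0.20 ± 0.75, with an interval (-1.80 to 1.40) that leaves both directions possible. Of the other probe sets, 1428034_a_at correlated with the brightest at r = 0.90 over the 18 arrays, which share depots and cell content. The third, 1421481_at, did not (r = -0.08) and was far below the array median everywhere, although it was called higher in BAT than in sWAT (1.21 ± 0.25, adjusted p = 0.0018) and than in mWAT (1.01 ± 0.25, adjusted p = 0.004) at 6°C.

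**Figure D2:**
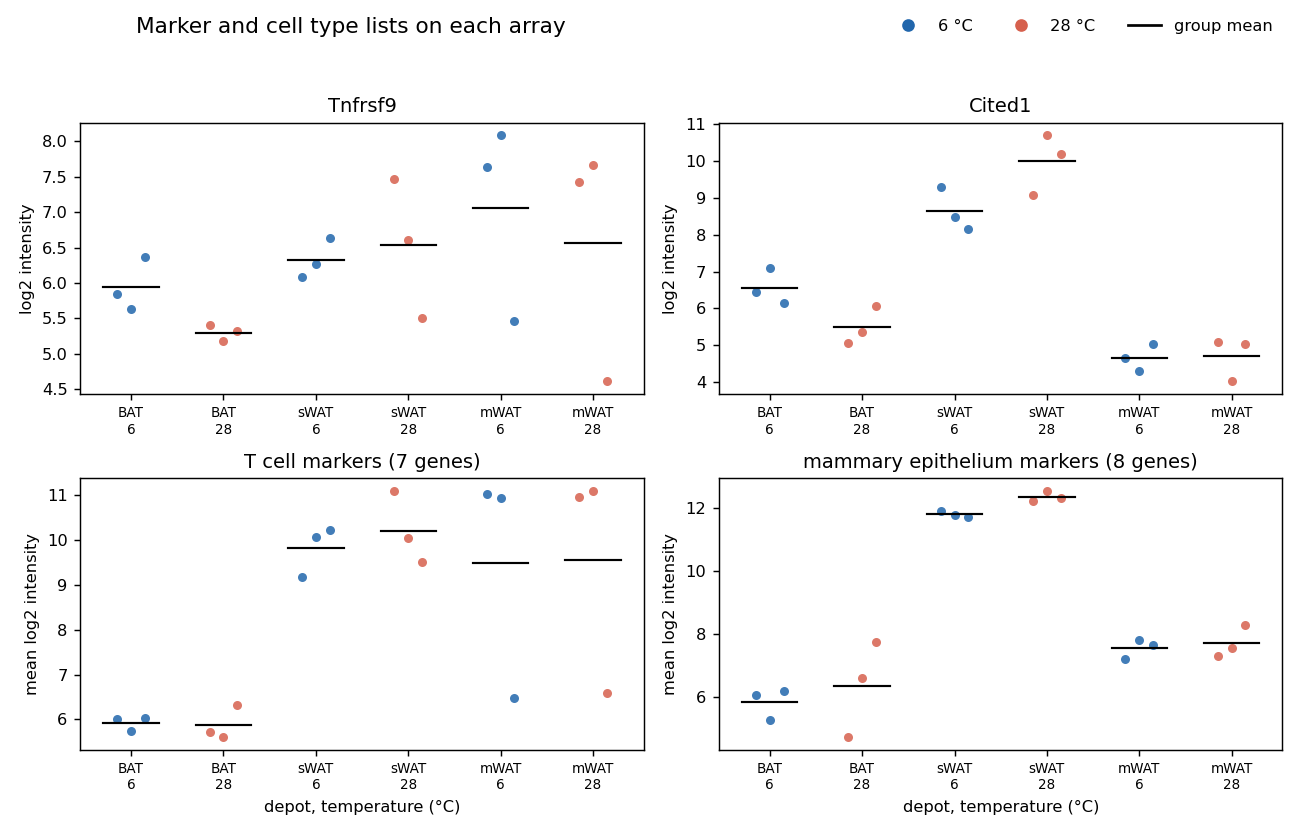
Top, log2 intensity of Tnfrsf9 and Cited1 on each array. Bottom, mean log2 intensity of 7 T cell genes and of 8 mammary epithelial genes on the same arrays, by depot and temperature (horizontal axes). Dots are arrays, blue at 6°C and red at 28°C, placed from left to right as arrays 1 to 3, and bars are means. Array 3 of mWAT is low for both Tnfrsf9 (5.46 and 4.61) and the T cell genes (6.48 and 6.59), and sWAT is high for both Cited1 and the mammary genes.

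Cited1 and Shox2 encode nuclear regulators, a transcriptional coactivator that does not bind DNA by itself and a homeodomain transcription factor known from limb and heart development, and both were highest in sWAT. The RefSeq sequences (GRCm38.p6) around their most upstream starts, from 250 bases before to 50 bases after, are shown since the 2 genes followed each other most closely among the beige markers, with r = 0.87 over 18 arrays that share the depots. That of Klhl13 is shown beside them, as the gene that went the other way in cold BAT. Capitals mark every match on either strand to the TATA box (written TATAAA), the GC box (written GGGCGG, or CCGCCC where it lies on the other strand), the CCAAT box or the cyclic AMP response element (TGACGTCA, or its first bases, TGACG). Shox2 is at chr3:66981722-66982021, Cited1 at chrX:102252132-102252431 and Klhl13 at chrX:23365033-23365332, all on the minus strand and written 5′ to 3′ in the direction of the gene.
Shox2: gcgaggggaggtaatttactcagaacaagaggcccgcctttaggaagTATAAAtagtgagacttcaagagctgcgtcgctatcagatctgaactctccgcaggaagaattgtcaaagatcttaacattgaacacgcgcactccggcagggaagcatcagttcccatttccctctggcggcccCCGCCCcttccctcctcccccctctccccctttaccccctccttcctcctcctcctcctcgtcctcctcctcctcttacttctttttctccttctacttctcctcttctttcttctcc
Cited1: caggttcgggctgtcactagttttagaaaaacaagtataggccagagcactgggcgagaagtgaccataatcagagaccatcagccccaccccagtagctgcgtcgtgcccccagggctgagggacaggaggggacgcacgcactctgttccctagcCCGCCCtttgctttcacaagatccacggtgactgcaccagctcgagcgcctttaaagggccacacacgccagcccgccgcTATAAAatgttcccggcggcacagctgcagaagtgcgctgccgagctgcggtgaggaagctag
Klhl13: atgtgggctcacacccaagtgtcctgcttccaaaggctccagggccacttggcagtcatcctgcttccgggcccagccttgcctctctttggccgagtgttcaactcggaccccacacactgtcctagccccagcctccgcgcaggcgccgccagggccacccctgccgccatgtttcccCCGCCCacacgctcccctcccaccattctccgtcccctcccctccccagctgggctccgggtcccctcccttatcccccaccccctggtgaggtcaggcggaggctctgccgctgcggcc

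TATAAA occurred in the windows of Shox2, beginning 203 bases before the start, and Cited1, 13 bases before it, and in 13.6% of the 32851 windows of all genes. It was not in the most upstream windows of the other 5 members with an entry (Tmem26, Tnfrsf9, Klhl13, Ear2 and Slc7a10). GGGCGG was in 6 of these 7 windows, all but that of Ear2, and in 35.7% of all windows. TGACGTCA, the full cyclic AMP response element (1.79% of all windows), and the direct repeat of spacing 1 bound by nuclear receptors (0.0396%), also searched, were in none of the 7. The GC content was 53.3% for Shox2, 59.7% for Cited1 and 69% for Klhl13, with a median of 52.7% over all windows. Members were counted on 1 most upstream window each, while the shares are over all windows, with several for some genes (14 for the 7 members). Counts and shares are thus not of like kind. GGGCGG was absent from the further windows of Tnfrsf9 and Cited1 and from some of Klhl13. These matches describe the letters of the windows only.

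Cited1 (chrX:102247378-102252181) had 1 probe set, 1449031_at, which read 6.44, 7.09 and 6.15 in BAT at 6°C and 5.06, 5.37 and 6.08 in BAT at 28°C. In sWAT it read 9.29, 8.49 and 8.17 at 6°C, against 9.07, 10.71 and 10.20 at 28°C. In mWAT it read 4.66, 4.31 and 5.03 at 6°C and 5.08, 4.02 and 5.03 at 28°C. Cited1 was above its array's median on all 6 sWAT arrays and on 1 of the other 12 (BAT at 6°C, array 2). Cold and warm did not overlap in BAT, where the lowest cold array (6.15) was close to the highest warm one (6.08), and overlapped in sWAT.

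Cited1 was lower in BAT than in sWAT at a log2 difference of -4.49 ± 0.44 at 28°C (adjusted p = 2.9e-06) and at -2.09 ± 0.44 at 6°C (adjusted p = 0.0019), and higher in sWAT than in mWAT by 5.28 ± 0.44 at 28°C (adjusted p = 1.6e-06) and by 3.99 ± 0.44 at 6°C (adjusted p = 2.6e-05). BAT exceeded mWAT at 6°C (1.89 ± 0.44, adjusted p = 0.0024). The calls at 6°C of BAT against sWAT and mWAT each ended in 2 fits without 1 array (array 3 of BAT or 1 of sWAT, and array 2 of BAT or of mWAT), at adjusted p of at most 0.011 and 0.014. The mean cold difference was negative in sWAT, at -1.34 ± 0.44 (adjusted p = 0.17), and positive in BAT, at 1.05 ± 0.44 (adjusted p = 0.14), and neither passed. The response of sWAT minus that of BAT was -2.40 ± 0.62 (adjusted p = 0.067). The 8 mammary epithelial genes, which mark the gland in the inguinal pad of females, averaged 11.90, 11.77 and 11.69 in sWAT at 6°C and 12.21, 12.53 and 12.29 in sWAT at 28°C, and within either temperature the array of highest Cited1 was also that of the highest mammary mean. In BAT the same held at 28°C (array 3), but at 6°C array 2 had the highest Cited1 (7.09) and the lowest mammary mean (5.27). The mammary genes averaged 7.55 and 7.70 in mWAT at 6 and 28°C, above 5.84 and 6.36 in BAT, but the 8 genes were not alike there. At 28°C the keratins Krt8, Krt18 and Krt19 were called higher in mWAT than in BAT (11.4% of all probe sets), and the other 5 were not called. On the mWAT arrays Elf5 read 3.53 to 4.33 and Foxa1 3.09 to 4.17. Cited1 was lowest in mWAT, at means of 4.67 and 4.71. The part of the mammary genes in the Cited1 values was not tested.

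Shox2 (chr3:66971723-66981771) gave the clearest order of the depots among the 8 genes. Its brighter probe set, 1438042_at, read 7.99, 8.01 and 8.21 in BAT at 6°C and 7.04, 6.92 and 7.20 in BAT at 28°C. In sWAT it read 10.14, 10.19 and 10.31 at 6°C and 9.32, 9.76 and 9.83 at 28°C. In mWAT it read 3.09, 3.92 and 3.79 at 6°C and 3.65, 3.65 and 3.79 at 28°C. Every sWAT array lay above every BAT array and every BAT array above every mWAT array, and within BAT and sWAT each cold array was above each warm one.

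Cold raised Shox2 in BAT 2.03-fold (1.02 ± 0.19, adjusted p = 0.0029). The cold difference was 0.58 ± 0.19 in sWAT (adjusted p = 0.17) and -0.10 ± 0.19 in mWAT, where the gene was far below the array median. The response of mWAT minus that of BAT was -1.12 ± 0.27 (adjusted p = 0.04). The call in BAT was not kept in every fit without 1 array. Leaving out array 3 of BAT at 6°C, or array 1 or 2 of BAT at 28°C, ended it, with adjusted p of at most 0.017 and differences of 0.95 to 1.09 over all such fits. The dimmer set, 1420559_a_at, gave 0.53 ± 0.22 (adjusted p = 0.15).

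Between depots, Shox2 was higher in sWAT than in mWAT by 5.94 ± 0.19 at 28°C (adjusted p = 1.6e-10) and 6.61 ± 0.19 at 6°C (adjusted p = 6.9e-11). BAT stood between them at 28°C, lower than sWAT at a log2 difference of -2.58 ± 0.19 (6-fold, adjusted p = 2.6e-07) and higher than mWAT by 3.35 ± 0.19 (adjusted p = 1.9e-08). The dimmer set kept the same order, with 2.32 ± 0.22 for sWAT minus mWAT at 28°C. In order of mean level, the neighbours sWAT at 28°C and BAT at 6°C, BAT at 6 and 28°C, and BAT and mWAT at 28°C were called different. The 2 sWAT groups and the 2 mWAT groups were not, although the arrays of the 2 sWAT groups did not overlap (limma adjusted p = 0.17).

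**Figure D3:**
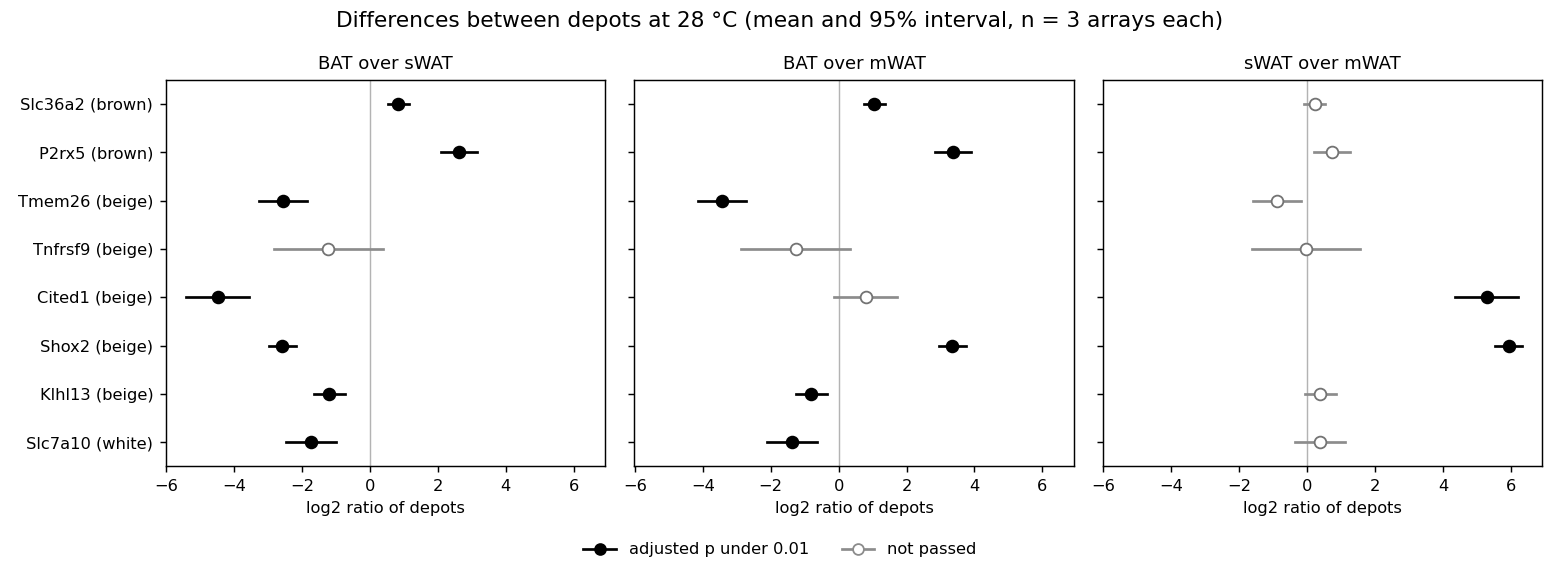
Log2 ratio of depots at 28°C (horizontal axis) for each of the 8 measured markers (vertical axis, proposed class in brackets), BAT over sWAT, BAT over mWAT and sWAT over mWAT. Points are fitted means, lines 95% intervals from 3 arrays a group, and filled points passed an adjusted p of 0.01. Slc36a2 and P2rx5 lie to the right in both comparisons with BAT, and Shox2 (5.94) and Cited1 (5.28) lie far to the right in sWAT over mWAT.

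Klhl13 (chrX:23219271-23365161) encodes a BTB-kelch adaptor of the cullin-3 ubiquitin ligase known from cell division in human cells, and was proposed as a gene selective for beige cells. Its brighter probe set, 1448269_a_at, read 8.58, 9.22 and 8.53 in BAT at 6°C, against 9.76, 10.17 and 10.22 in BAT at 28°C. In sWAT it read 10.77, 11.05 and 10.69 at 6°C and 11.20, 11.29 and 11.25 at 28°C. In mWAT it read 10.26, 10.41 and 11.02 at 6°C and 10.73, 11 and 10.84 at 28°C. Cold and warm did not overlap in BAT or in sWAT, and each BAT array was below each WAT array.

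In cold BAT Klhl13 fell by 1.27 ± 0.21 on the log2 scale (adjusted p = 0.0015), to a mean of 8.78 at 6°C, against 10.05 at 28°C, the lowest 2 of the 6 groups. The second probe set, 1416242_at, was called as well (-1.21 ± 0.24, adjusted p = 0.0043). The cold differences in sWAT (-0.41 ± 0.21, adjusted p = 0.47) and mWAT (-0.29 ± 0.21) did not pass, and the response of sWAT minus that of BAT was 0.86 ± 0.30 (adjusted p = 0.19). Leaving out array 3 of BAT at 6°C left the call in BAT just over the threshold (adjusted p = 0.01 as rounded), and a fit of the 2 BAT groups alone ended it (adjusted p = 0.024). The mean of the 6 muscle genes also differed between these arrays, at 7.44, 10.36 and 8.28 in BAT at 6°C and 8.41, 12.77 and 12.37 in BAT at 28°C. Their part in the Klhl13 values was not tested.

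Klhl13 was lower in BAT than in sWAT at a log2 difference of -1.20 ± 0.21 at 28°C (adjusted p = 0.00053) and at -2.06 ± 0.21 at 6°C (adjusted p = 7.1e-06). Against mWAT it was lower in BAT at a log2 difference of -0.81 ± 0.21 at 28°C (adjusted p = 0.0074), a call lost in 10 of the 18 fits without 1 array, with median centring (adjusted p = 0.019) and in a fit of these groups alone (adjusted p = 0.014), and at -1.78 ± 0.21 at 6°C (adjusted p = 9.1e-06). sWAT and mWAT differed by 0.39 ± 0.21 at 28°C (adjusted p = 0.34) and 0.27 ± 0.21 at 6°C (adjusted p = 0.5).

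**Figure D4:**
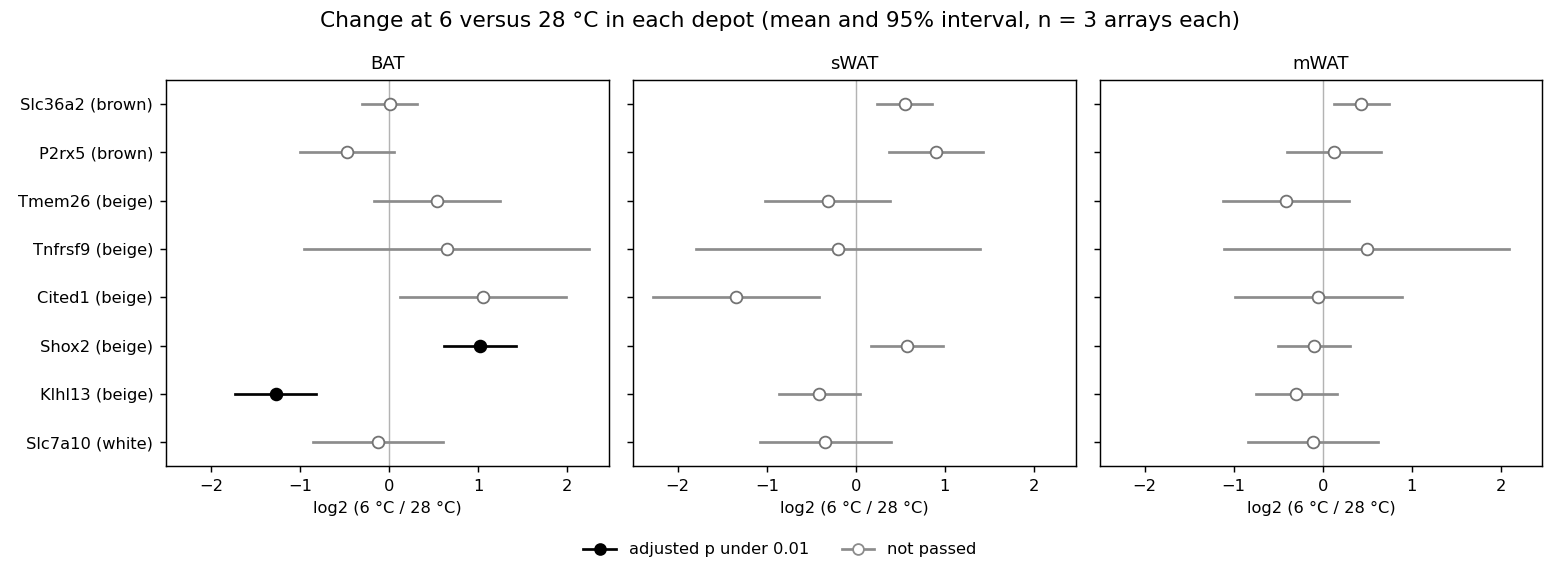
Log2 ratio of 6 over 28°C (horizontal axis) for each of the 8 measured markers (vertical axis, proposed class in brackets) in BAT, sWAT and mWAT. Points are fitted means, lines 95% intervals from 3 arrays a group, and filled points passed an adjusted p of 0.01, which only Shox2 (1.02) and Klhl13 (-1.27) in BAT did.

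In sWAT, a depot in which beige adipocytes arise, none of the 5 measured beige markers passed for cold against warm. Only 0.48% of all probe sets did, so that this count is near the background. The mean differences of the 5 ran from -1.34 (Cited1) to 0.58 (Shox2), with intervals for Tmem26, Tnfrsf9 and Klhl13 that included 0. The differences of the 2 brown markers, Slc36a2 and P2rx5, were 0.55 and 0.90 in sWAT and did not pass either. In the same sWAT arrays Ucp1 rose by 3.65 ± 0.30 (adjusted p = 4.3e-05). None of the 8 markers passed for a difference between the cold responses of 2 depots, where 0.362% (sWAT minus BAT), 0.582% (mWAT minus BAT) and 0% (sWAT minus mWAT) of all probe sets did, although 4, 2 and 2 of the 8 genes had an unadjusted p under 0.05 (14.3, 15.7 and 5.08% of all probe sets). Cold sWAT differed from warm BAT in 5 of the 8 genes (14.4% of all probe sets), being higher for Tmem26, Cited1, Shox2 and Slc7a10 and lower for P2rx5.

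Relatives and partners of the markers were measured for 27 of 34 listed genes. In BAT cold raised 2 of the 27 (3.05% of all probe sets) and lowered 1 (2.23%). None was called in sWAT or mWAT, where 0.48 and 0.00222% of all probe sets were, so that these counts are near the background. Between BAT and sWAT at 28°C, 4 were higher (13.2% of all probe sets) and 8 lower in BAT (9.66%). The heavy chain Slc3a2, partner of Slc7a10, rose in cold BAT (1.12 ± 0.14, adjusted p = 0.00014) to a mean of 11.79 at 6°C, against 10.67 at 28°C. Slc3a2 was the 1 gene of the list whose response differed between sWAT and BAT (-1.17 ± 0.19, adjusted p = 0.0073). P2rx6, a P2X subunit related to P2rx5, rose in cold BAT (1.27 ± 0.23, adjusted p = 0.0024), and Cited2, a paralog of Cited1, fell there (-0.77 ± 0.15, adjusted p = 0.0049). Tnfsf9, the ligand of Tnfrsf9, was lower in BAT than in sWAT at 28°C (-1.40 ± 0.32, adjusted p = 0.0036), as was Traf1, an adaptor of this receptor family (-3.15 ± 0.80, adjusted p = 0.0068), beside T cell genes of which 5 of 7 were lower in BAT (9.66% of all probe sets). At 6°C 1 of these 7, Cd2, was called between BAT and sWAT, where 23.7% of all probe sets were. The median log2 difference of the 7 was nevertheless -3.89 at 6°C, against -4.44 at 28°C. Ear3, of the same family as Ear2, was lower in BAT than in sWAT at 28°C (-1.35 ± 0.32, adjusted p = 0.0044), on a probe set of a type that can also bind other transcripts.

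Some pairs of markers ran closely together or opposite over the arrays, while Tnfrsf9 had no r with another marker stronger than -0.62 (Slc36a2). Over the 18 arrays, r was 0.90 between Slc36a2 and P2rx5, 0.87 between Cited1 and Shox2, 0.85 between Klhl13 and Slc7a10 and -0.95 between Tmem26 and P2rx5, as a description of arrays that share depots. The 3 genes most like each marker were ranked by r over the 34945 probe sets that name 1 gene. For P2rx5 they were Car13 (0.988), Atpaf1 (0.987) and Mrpl50 (0.986), and for Slc36a2 Gpd2 (0.979), Mdh1 (0.978) and Oplah (0.972), among which Atpaf1, Mrpl50, Gpd2 and Mdh1 encode proteins of mitochondria or of fuel oxidation. For Cited1 they were Cblc (0.969), Krt5 (0.968), a keratin of basal epithelium, and Mir205hg (0.968). For Shox2 they were Glt28d2 (0.968), Lrrc8e (0.961) and Fam160a1 (0.952). For Tnfrsf9 they were Ikzf3 (0.957), a lymphocyte transcription factor, Rinl (0.956) and Snx8 (0.954). For Klhl13 they were Itm2a (0.985), Igf1 (0.984) and Glb1l2 (0.98), for Slc7a10 Tgfb3 (0.943), Cachd1 (0.939) and B3galt1 (0.938), and for Tmem26 Slc7a1 (0.964), Prps2 (0.964) and Myef2 (0.963).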

How the data were processed

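The authors deposited 1 table of intensities on a linear scale, after background adjustment, summarization and normalization in R and Bioconductor. The algorithm is not given in the sources used here, and no detection values were used. The array type differs between the methods, a legend and the probe sets of the table. RNA was amplified before labelling. The number of arrays limits the precision.

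Intensities, 4.437 to 31897.2, were taken to log2, and 64 control probe sets were left out. Genes came from the platform's annotation (34945 probe sets named 1 gene, 932 several and 9160 none). The deposited values were fitted with limma 3.58.1 (R 4.3.3) as 6 group means (12 residual and 2.64 prior degrees of freedom), with Benjamini-Hochberg adjustment over 45037 probe sets for each contrast and the threshold of 0.01 of the study's methods. The model was tested on simulated data. ± is the standard error of a difference. The brightest probe set by mean over all arrays stood for a gene, the 3 most correlated genes were named for each marker, and other genes came from 3 lists, at most 4 by value each time. The markers and lists were chosen with earlier results of these data known. Motifs were searched in RefSeq promoter windows, which held an entry for 7 of the 9 genes and none for Slc36a2 and P2rx5. Alternatives were a filter on dim probe sets, quantile normalization, median centring, a variance trend with robust estimates, the compared groups alone, the mean of a gene's probe sets, other thresholds, leaving out each array and, added later, leaving out both mWAT arrays 3.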

Additional observations from a re-analysis of the deposited data

How the results depend on the processing

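Of the 96 marker results, 33 were called, and none of the 33 changed sign under any alternative. Without 1 array at a time, 24 of the 33 stayed called in every fit and none of the other 63 became called. The number of genes called in these fits ran from 0 to 2 for cold against warm BAT (0 without array 3 of BAT at 6°C, 1 without array 1 or 2 of BAT at 28°C) and from 4 to 7 for BAT against mWAT at 6°C (4 without array 2 of mWAT). Fits of the compared groups alone ended 6 calls, leaving 1 gene for cold against warm BAT (Klhl13 lost), 6 for BAT against sWAT at 28°C (Slc7a10 lost), 4 for BAT against mWAT at 28°C (Klhl13 and Slc7a10 lost), 6 for BAT against mWAT at 6°C (Slc36a2 lost) and 2 for sWAT against mWAT at 6°C (P2rx5 lost). For cold against warm BAT the number was also 1 with the mean of a gene's probe sets, where Shox2 missed the threshold (0.77, adjusted p = 0.012). At an adjusted p of 0.05 the difference of the cold responses of mWAT and BAT held 1 gene, Shox2.

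Results that changed sign were all uncalled. Over the fits without 1 array, the cold difference ran from -0.034 to 0.04 for Slc36a2 and -0.54 to 0.12 for Slc7a10 in BAT, and from -0.71 to 0.27 for Tnfrsf9 in sWAT. In mWAT it ran from -0.48 to 1.29 for Tnfrsf9, -0.39 to 0.14 for Cited1, -0.26 to 0.15 for Shox2, -0.046 to 0.31 for P2rx5 and -0.26 to 0.18 for Slc7a10. The difference of sWAT and mWAT at 28°C ran from -1.02 to 0.51 for Tnfrsf9. The cold response of sWAT minus that of BAT ran from -0.46 to 0.20 for Slc7a10, and that of mWAT minus BAT from -1.13 to 0.65 for Tnfrsf9 and -0.23 to 0.43 for Slc7a10. The response of sWAT minus that of mWAT ran from -0.084 to 0.22 for Tmem26, -1.49 to 0.29 for Tnfrsf9, -0.27 to 0.11 for Klhl13 and -0.016 to 0.22 for Slc36a2. For Slc7a10, mWAT minus BAT (0.01) became -0.003 with quantile normalization and -0.054 with median centring. With the mean of the probe sets, Shox2 in cold mWAT became 0.12, and Tnfrsf9 in BAT minus sWAT at 6°C 0.14. Without both mWAT arrays 3, the cold difference in mWAT became -0.032 for P2rx5 and 0.14 for Slc7a10, and the response of sWAT minus that of mWAT -0.021 for Tmem26 and 0.12 for Klhl13. The causes were not tested. Leaving out dim probe sets kept 26097 probe sets and 7 of the 8 genes.

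With 3 arrays a group, differences of depots at the same temperature or of temperatures within a depot as large as -1.34 (Cited1 in cold sWAT), and of responses as large as -2.40 (Cited1, sWAT minus BAT), did not pass, and levels under the array median carry no exact fold. No paired analysis was possible because the labels do not say which arrays come from the same mouse.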

Other observations

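All 22 other genes listed as proposed adipocyte markers were measured. The 9 brown ones were each higher in BAT than in sWAT (13.2% of all probe sets) and in mWAT (15.8%) at 28°C, among them Zic1, a transcription factor of the brown fat lineage, by 6.83 ± 0.17 over sWAT (limma adjusted p = 1.2e-11). Of these, Ucp1 and Cidea, a protein of lipid droplets, rose in cold sWAT, Cidea by 1.52 ± 0.24 (adjusted p = 0.005), and Ucp1 alone of the 9 rose in cold mWAT. None of the 6 beige ones was called for cold, a count near the background, as 5.28% of all probe sets were called in BAT, 0.48% in sWAT and 0.00222% in mWAT. Of the 6, Tbx1, Slc27a1 and Hoxc9 were lower in BAT than in sWAT at 28°C (9.66% of all probe sets). Tbx1, a T-box transcription factor, was about as high in mWAT as in sWAT (-0.20 ± 0.37 for sWAT minus mWAT at 28°C), whereas Hoxc9, a homeobox gene of posterior positions, was higher in sWAT (1.98 ± 0.28, adjusted p = 2e-04). Of the 7 white ones, Hoxc8, Retn, Wfdc21 and Nrip1 were lower in BAT than in sWAT at 28°C (9.66% of all probe sets), and Lep, which encodes leptin, fell in cold BAT (-2.77 ± 0.58, adjusted p = 0.0065).

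The remaining lists of cell type genes, given as the range of their mean log2 intensity over arrays, also differed by depot. Macrophage genes were at 8.56 to 9.14 in BAT and 9.43 to 10.17 in WAT, mast cell genes at 9.53 to 9.88 in sWAT and 6.93 to 8.39 elsewhere, and mesothelial genes at 9.75 to 11.26 in mWAT and 4.33 to 6.00 elsewhere. Neuronal genes were at 10.37 to 11.56 in mWAT and 4.92 to 6.56 elsewhere. B cell genes were at 5.92 to 6.75 in BAT and 7.38 to 10.75 in WAT, eosinophil genes at 4.06 to 6.02 and endothelial genes at 9.65 to 10.87 on all arrays, and brown fat genes at 13.07 to 13.57 in BAT and 8.35 to 12.65 in WAT. Genes of the exocrine pancreas reached 14.27 on array 2 of mWAT at 6°C, 11.06 on array 3 of BAT at 6°C and 10.70 on array 1 of mWAT at 28°C.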
